A study of Arabidopsis thaliana with 9 samples.

Results

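The 8 small RNA rows described here belong to 3 miRNA families of leaf growth, namely ath-MIR164a, ath-MIR164b, ath-MIR164c, ath-MIR319a, ath-MIR319b, ath-MIR319c, ath-MIR396a and ath-MIR396b. They were taken by their identifiers from a table of 33171 small RNA features, of which 326 are miRNA rows, and all 8 were found with a value in each library. None of the 8 passed limma's limits for a change in Fe resupply against +Fe (0.127% of all features passed), in -Fe against +Fe (0.504%) or in Fe resupply against -Fe (0.528%). An unadjusted p under 0.05 was found for 4 of the 8, beside 6.63% of all features, for 1 of the 8, beside 8.02%, and for 1 of the 8, beside 11.0%, in the order of these comparisons. The largest differences were those of ath-MIR396b and ath-MIR319c, which were about 1.26 fold higher in Fe resupply than in +Fe shoots (adjusted p = 0.21 and 0.286 from limma). In both, every Fe resupply library lay above every +Fe library, as in 5.35% of all features and 11.8% of 306 other miRNA rows. Of those 306 rows, 17.6% had an unadjusted p under 0.05 from limma in this comparison.

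Small RNA libraries were made from total RNA of whole shoots of wild type Col-0 Arabidopsis, in 3 conditions with 3 biological replicates each. All plants had 14 days on MS medium with iron. Fe resupply plants then had 3 days without iron and 24 hours with iron, -Fe plants had 3 days and a further 24 hours without iron, and +Fe plants had iron on every medium, with the same transfers. The number of plants in a library is not given in the sources used here, and in whole shoots a lower level per cell and fewer cells of a type cannot be told apart. The table holds small RNAs and no mRNAs, so the tissue was not checked against mRNA markers.

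The deposited values are log2 normalized, with library medians between 3.83 and 3.87 and correlations between replicates across features from 0.994 to 0.996. The transformation is not named in the sources used here. If it is a regularized logarithm, which the values resemble, low values are drawn together and differences of rare RNAs are understated. Read totals are not part of the table and the depth is unknown. Tests were made with limma in 1 fit of all 9 libraries and 33159 features. To pass, a feature needed an FDR (Benjamini-Hochberg adjusted p) under 0.1 together with a difference of at least 0.5 on the log2 scale in either direction, which is 1.41 fold.

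A plant miRNA is cut by a Dicer enzyme from a folded precursor and guides an Argonaute protein to mRNAs with a nearly complementary site, which are cleaved or less translated. In leaves the 3 families form a network around cell proliferation. miR164 acts on NAC transcription factors such as CUC1 and CUC2, which set organ boundaries and the teeth of the leaf margin, and on ORE1, a promoter of leaf senescence. miR319 acts on TCP factors of the CINCINNATA type, which end proliferation and start differentiation. miR396 acts on GROWTH-REGULATING FACTOR (GRF) genes, which with their GIF coactivators keep leaf cells dividing. In Arabidopsis TCP4 is known to raise miR396, and TCP3 to activate MIR164a.

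The mature RNAs show which rows can be told apart by sequence. They were read from the TAIR10.1 reference at the positions annotated by RefSeq, and the capitals mark the seed, bases 2 to 8 from the 5′ end.
ath-miR164a: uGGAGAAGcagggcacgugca
ath-miR164b-5p: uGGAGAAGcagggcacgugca
ath-miR164c-5p: uGGAGAAGcagggcacgugcg
ath-miR319a: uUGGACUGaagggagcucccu
ath-miR319b: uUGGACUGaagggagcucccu
ath-miR319c: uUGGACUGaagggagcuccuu
ath-miR396a-5p: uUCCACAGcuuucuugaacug
ath-miR396b-5p: uUCCACAGcuuucuugaacuu

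Each family has 1 seed in these guide RNAs, and its members differ by at most 1 base. Among all annotated mature RNAs, the miR164 seed is also found in ath-miR835-3p, and the other 2 seeds in no other family. Counted from 1 at the 5′ end, ath-miR164a and ath-miR164c-5p differ by A21G, ath-miR319a and ath-miR319c by C20U, and ath-miR396a-5p and ath-miR396b-5p by G21U. The guides of MIR164a and MIR164b are identical, and so are those of MIR319a and MIR319b. A read of such a guide could come from either locus, and its assignment to a row was made by the aligner.

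The loci lie on 3 chromosomes of TAIR10.1. MIR164a (AT2G47585) is on chromosome 2 from 19520752 to 19520864, MIR319c (AT2G40805) on chromosome 2 from 17029701 to 17029899 and MIR396a (AT2G10606) on chromosome 2 from 4142323 to 4142473, on the bottom strand. MIR319a (AT4G23713) is on chromosome 4 from 12352956 to 12353131. MIR164b (AT5G01747) is on chromosome 5 from 287584 to 287736, MIR164c (AT5G27807) from 9852674 to 9852775, MIR396b (AT5G35407) from 13611798 to 13611932, and MIR319b (AT5G41663) from 16660469 to 16660640 on the bottom strand. Each is annotated as a miRNA precursor gene of its own. The guide lies on the 5′ arm of the miR164 and miR396 precursors and on the 3′ arm of the miR319 precursors.

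Each of the 8 loci was also called as a cluster of small RNAs, and the values of cluster and miRNA row were equal to within 0.000128 in every library. The 2 entries are thus 1 measurement. The leading RNA, the most abundant sequence that the table names for a cluster, was the annotated guide at 6 of the 8 loci and another length at the other 2.
Cluster_17782 at MIR164c: uggagaagcagggcacgugc
Cluster_9677 at MIR319c: uuggacugaagggagcuccuuc

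The leading RNA at MIR164c is 20 nt long and is contained in all 3 miR164 guides, with 3 exact sites in the nuclear genome, so it does not by itself mark MIR164c. The leading RNA at MIR319c is 22 nt long, contains ath-miR319c and has 1 exact site, as have the leading RNAs at MIR396a and MIR396b. The leading RNA of MIR319a and MIR319b has 2 exact sites, 1 at each locus.

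Levels differed widely between the rows. The annotated guides have the same length, but a row is the value of a whole locus, which can hold reads of both arms and other lengths and whose share of a common guide was set by the aligner, so the order below is one of loci and not of guides. ath-MIR396b was the highest of the 8, with a mean over the 9 libraries of 13.14, and ranked 8 among the 326 miRNA rows. It was followed by ath-MIR319a (12.38, rank 10), ath-MIR319c (11.80, rank 13), ath-MIR396a (11.79, rank 14) and ath-MIR319b (10.11, rank 30). The miR164 rows were lower, with 7.81 for ath-MIR164b, 6.93 for ath-MIR164c and 5.01 for ath-MIR164a, at ranks 59, 80 and 138. ath-MIR319c and ath-MIR396a were neighbours whose values overlapped, from 11.62 to 12.10 and from 11.62 to 11.94. The ranges of all other neighbours in this order did not overlap, except for that of ath-MIR319a with ath-MIR319c.

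**Figure D1:**
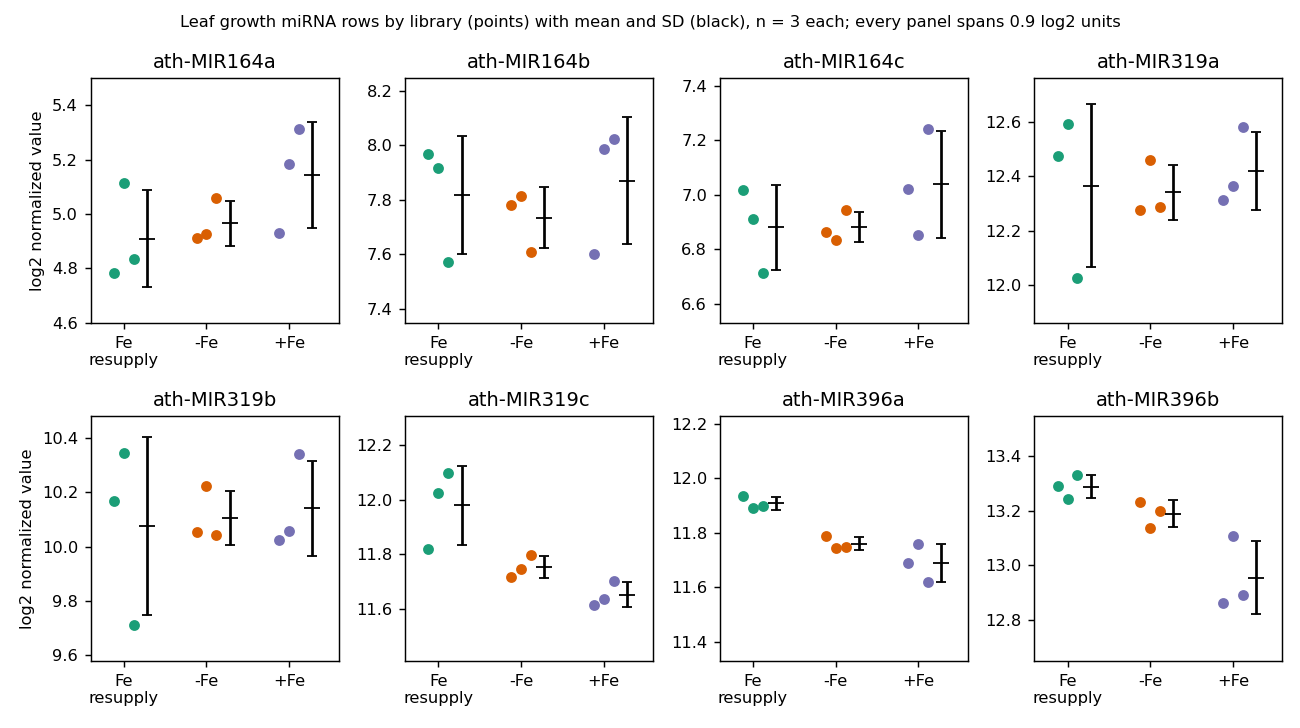
Log2 normalized values (y axis) of the 8 rows in Fe resupply, -Fe and +Fe shoots (x axis), with 1 point a library and the mean and SD in black (n = 3). The points of ath-MIR319c, ath-MIR396a and ath-MIR396b in Fe resupply all lie above those in +Fe. Those of the 3 miR164 rows, ath-MIR319a and ath-MIR319b overlap.

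The miR396 rows, which act on the GRF genes, had the highest values in Fe resupply. ath-MIR396b had 13.29, 13.24 and 13.33 in Fe resupply libraries, 13.23, 13.14 and 13.20 in -Fe libraries, and 12.86, 13.11 and 12.89 in +Fe libraries. The 3 conditions did not overlap, although the gap between Fe resupply and -Fe was only 0.011 and that between -Fe and +Fe 0.027. The log2 fold change was 0.33 in Fe resupply against +Fe (standard error 0.083, adjusted p = 0.21 from limma), with a 95% interval from 0.16 to 0.51. For -Fe against +Fe it was 0.23 (standard error 0.083, adjusted p = 0.389 from limma), and Fe resupply differed from -Fe by 0.10 (adjusted p = 0.72 from limma). With the exact permutation test, each of these comparisons gave p = 0.1, the smallest that 3 libraries against 3 allow.

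ath-MIR396a had 11.94, 11.89 and 11.90 in Fe resupply, 11.79, 11.74 and 11.75 in -Fe, and 11.69, 11.76 and 11.62 in +Fe. Fe resupply libraries lay above all others, and those of -Fe and +Fe overlapped. Its log2 fold change was 0.22 in Fe resupply against +Fe (standard error 0.080, adjusted p = 0.604 from limma) and 0.15 in Fe resupply against -Fe (adjusted p = 0.529 from limma). In -Fe against +Fe it was 0.07. Under quantile normalization it was 0.093 in Fe resupply against +Fe (adjusted p = 0.854 from limma) and -0.03 in -Fe against +Fe.

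The distance between the 2 miR396 loci was also compared. In each library ath-MIR396b exceeded ath-MIR396a by 1.17 to 1.45 on the log2 scale. This excess was 1.38 ± 0.05 in Fe resupply, 1.43 ± 0.03 in -Fe and 1.27 ± 0.09 in +Fe (SD, n = 3 each), and the libraries of Fe resupply and of -Fe each lay above those of +Fe (two-sided exact permutation test, p = 0.1 in both), those of Fe resupply with a lowest value of 1.354 against a highest of 1.351 in +Fe. Fe resupply and -Fe overlapped, with a difference of -0.05 (two-sided exact permutation test, p = 0.2). No exact permutation test of 3 libraries against 3 can go below p = 0.1, so this distance is not shown to differ between conditions. The precursors are shown because the clusters cover both arms. They are given 5′ to 3′ as DNA from TAIR10.1, with the annotated 5p and 3p RNAs in capitals.
MIR396a: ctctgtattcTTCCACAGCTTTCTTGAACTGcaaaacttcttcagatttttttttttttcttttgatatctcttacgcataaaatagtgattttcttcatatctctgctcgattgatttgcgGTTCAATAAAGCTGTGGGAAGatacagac
MIR396b: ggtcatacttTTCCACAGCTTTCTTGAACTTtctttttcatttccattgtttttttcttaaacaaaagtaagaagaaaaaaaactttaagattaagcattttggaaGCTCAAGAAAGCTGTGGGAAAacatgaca

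The loops between the arms differ between the loci, while the guides differ only in the last base. The table gives 1 value a locus and does not separate reads of the arms.

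In the miR319 family, which acts on TCP genes, ath-MIR319c was the row whose conditions were separated. It had 11.82, 12.03 and 12.10 in Fe resupply, 11.72, 11.74 and 11.80 in -Fe, and 11.62, 11.64 and 11.70 in +Fe. The conditions did not overlap, with gaps of 0.021 between Fe resupply and -Fe and 0.013 between -Fe and +Fe. Its log2 fold change was 0.33 in Fe resupply against +Fe (standard error 0.087, 95% interval from 0.15 to 0.51, adjusted p = 0.286 from limma) and 0.23 in Fe resupply against -Fe (adjusted p = 0.323 from limma). In -Fe against +Fe it was 0.10 (adjusted p = 0.853 from limma), and -0.01 under quantile normalization.

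The rows with the shared guide did not separate the conditions. ath-MIR319a had 12.48, 12.59 and 12.03 in Fe resupply, 12.28, 12.46 and 12.29 in -Fe, and 12.31, 12.36 and 12.58 in +Fe. ath-MIR319b had 10.17, 10.34 and 9.71 in Fe resupply, 10.05, 10.22 and 10.04 in -Fe, and 10.02, 10.06 and 10.34 in +Fe. All conditions overlapped in both rows. Their log2 fold changes lay between -0.08 and 0.02 in the 3 comparisons, with adjusted p of at least 0.93 from limma.

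The library Fe resupply replicate 3 held the lowest value of the 9 for ath-MIR319a and ath-MIR319b and the highest for ath-MIR319c. Without it, the log2 fold change in Fe resupply against +Fe was 0.12 for ath-MIR319a and 0.12 for ath-MIR319b, in place of -0.05 and -0.07, while that of ath-MIR319c was 0.27. ath-MIR319a exceeded ath-MIR319b by 2.23 to 2.32 in every library, a range of 0.090, although each of the rows spanned more than 0.5. The guides of these 2 loci are identical and the aligner assigned their reads, and its part in this difference was not tested. Between ath-MIR164b and ath-MIR164a, which also share a guide, the difference ranged from 2.55 to 3.18. The difference of ath-MIR319c and ath-MIR319a ranged from -0.88 to 0.07, and Fe resupply replicate 3 was the only library with ath-MIR319c above ath-MIR319a. It was -0.66, -0.57 and 0.07 in Fe resupply against -0.70, -0.73 and -0.88 in +Fe, without overlap (two-sided exact permutation test, p = 0.1).

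**Figure D2:**
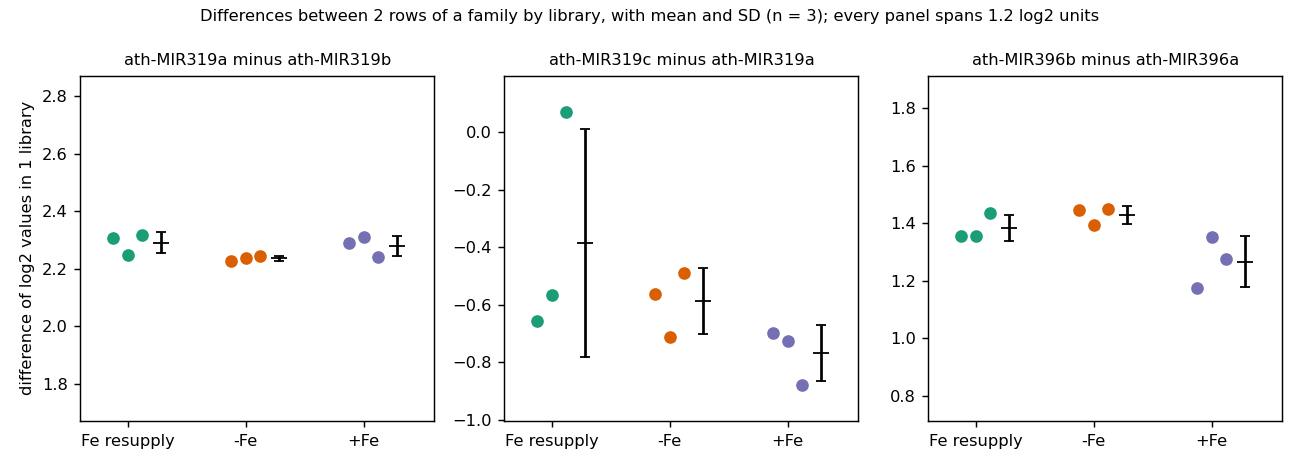
Difference of the log2 values of 2 rows of a family in each library (y axis) for Fe resupply, -Fe and +Fe (x axis), with mean and SD in black (n = 3). ath-MIR319a minus ath-MIR319b stays between 2.23 and 2.32, whereas ath-MIR319c minus ath-MIR319a reaches 0.07 in Fe resupply replicate 3.

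Sequences that the table lists without a position hold further forms of miR319. Of 3792 such sequences, 3 contain at least 18 nt of a mature RNA of the 3 families, and all 3 begin like ath-miR319a. The bases that follow the shared stretch are in capitals.
22 nt form: uuggacugaagggagcucccCU
23 nt form ending in A: uuggacugaagggagcucccuUA
23 nt form ending in C: uuggacugaagggagcucccuUC

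None of them has an exact site in the nuclear chromosomes of TAIR10.1. Taking 1 base out of the 22 nt form gives the leading RNA of MIR319a and MIR319b, and taking 1 base out of the form ending in C gives that of MIR319c. Both 23 nt forms also contain the whole leading RNA of MIR319a and MIR319b, and their locus of origin was not tested. The form ending in C was the most abundant, with log2 values of 6.30, 6.53 and 6.17 in Fe resupply, 6.04, 6.25 and 6.03 in -Fe, and 5.94, 6.03 and 6.06 in +Fe. Fe resupply libraries lay above those of +Fe and overlapped those of -Fe. Its log2 fold change in Fe resupply against +Fe was 0.33 (standard error 0.10, adjusted p = 0.494 from limma), beside -0.09 and 0.04 for the other forms.

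The miR164 rows, which act on NAC genes, gave no separation of conditions in any comparison. ath-MIR164b ranged from 7.57 to 7.97 in Fe resupply, from 7.61 to 7.81 in -Fe and from 7.60 to 8.02 in +Fe. ath-MIR164c ranged from 6.71 to 7.02 in Fe resupply, from 6.84 to 6.94 in -Fe and from 6.85 to 7.24 in +Fe. ath-MIR164a, the least abundant row, ranged from 4.78 to 5.11 in Fe resupply, from 4.91 to 5.06 in -Fe and from 4.93 to 5.31 in +Fe. The means of all 3 rows were highest in +Fe, and the log2 fold changes lay between -0.23 and -0.05 in Fe resupply and between -0.18 and -0.14 in -Fe, both against +Fe. All 3 rows had their highest value in +Fe replicate 3. Without that library, the log2 fold change in Fe resupply against +Fe was -0.15 for ath-MIR164a, 0.024 for ath-MIR164b and -0.055 for ath-MIR164c, and that between -Fe and +Fe was -0.092, -0.060 and -0.055 in the same order. The one with the lowest unadjusted p from limma was ath-MIR164a in Fe resupply against +Fe, at -0.23 (standard error 0.11, 95% interval from -0.47 to -0.0011, adjusted p = 0.751).

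**Figure D3:**
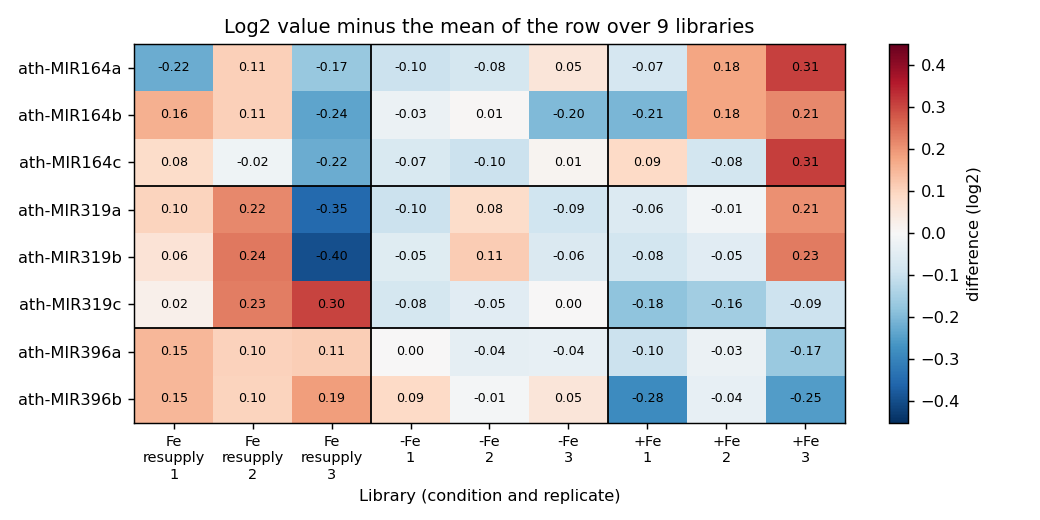
Log2 value of each row (y axis) minus its mean over the 9 libraries, by library (x axis), with red above and blue below the mean. ath-MIR319a and ath-MIR319b share their pattern, lowest in Fe resupply replicate 3, whereas ath-MIR319c is highest there and the miR396 rows are highest across Fe resupply.

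As a group, 0 of the 8 rows passed in each of the 3 comparisons, with or without the fold limit. Without that limit 0.175% of all features were called between Fe resupply and +Fe, 0.799% between -Fe and +Fe and 1.12% between Fe resupply and -Fe. At an unadjusted p under 0.05 from limma there were 4 of 8 in Fe resupply against +Fe (6.63% of all features), 1 of 8 for -Fe against +Fe (8.02%) and 1 of 8 for Fe resupply against -Fe (11.0%). The 4 were ath-MIR396a, ath-MIR396b and ath-MIR319c, with positive differences, and ath-MIR164a, with a negative one. The 1 in each of the other comparisons was ath-MIR396b in -Fe against +Fe and ath-MIR319c when Fe resupply was compared with -Fe.

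The libraries of Fe resupply lay wholly above those of +Fe for 3 of 8 rows, beside 5.35% of all features, and wholly above those of -Fe for 3 of 8, beside 7.27%. Those of -Fe lay wholly above those of +Fe for 2 of 8 rows, beside 7.15%. The shares were higher among the other miRNA rows than among all features. Of the 306 miRNA rows outside the 3 families, 11.8% lay wholly above in Fe resupply against +Fe, 10.5% for -Fe against +Fe and 9.48% between Fe resupply and -Fe, and 17.6%, 15.0% and 13.4% had an unadjusted p under 0.05 from limma. Of the 42 rows of other leaf development miRNAs described further on, 7.14%, 19.0% and 2.38% lay wholly above in the same order. For 0 of 8 rows did they lie wholly below, where the shares of all features were 5.73% for Fe resupply and 6.41% for -Fe, both against +Fe, and 8.70% when Fe resupply was set against -Fe. Reads of a shared guide could fall to either row, so the 8 are not 8 separate measurements.

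The limits that the data set on a change were narrow for all rows. Of the 24 intervals (8 rows in 3 comparisons), 22 lay within 0.5 of 0 on the log2 scale, and the others, ath-MIR396b and ath-MIR319c in Fe resupply against +Fe, ended at 0.51. The standard errors were between 0.080 and 0.13. These intervals are on the scale of the deposited values, which may compress low levels such as those of ath-MIR164a.

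**Figure D4:**
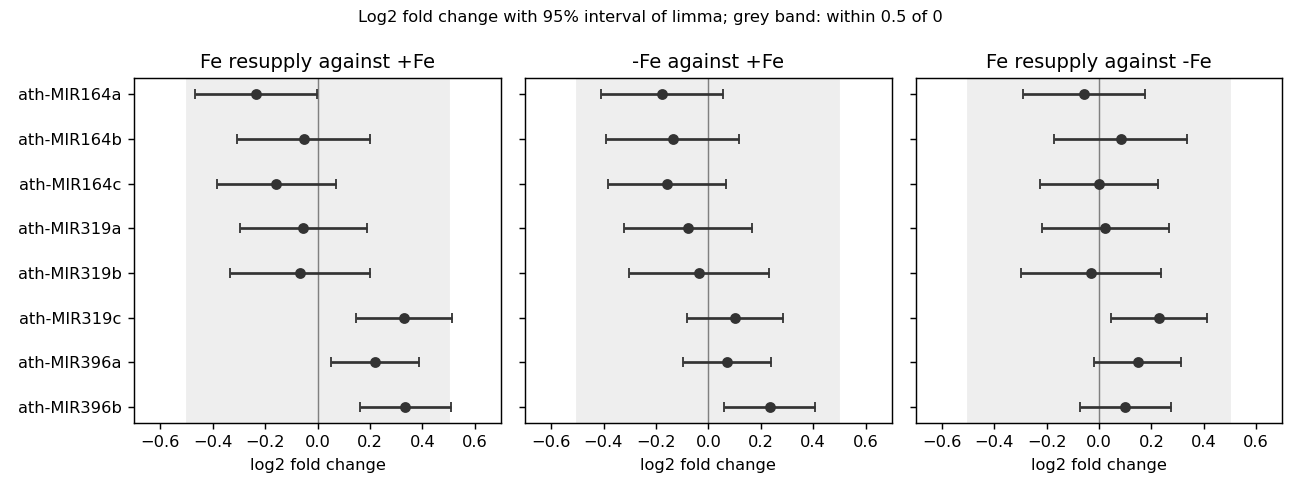
Log2 fold change (x axis) of each row (y axis) with its 95% interval from limma, with a panel for each of the 3 comparisons. The grey band marks 0.5 on either side of 0. Most intervals lie inside the band, and those of ath-MIR319c and ath-MIR396b in Fe resupply against +Fe reach 0.51.

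Summed over each family on the back-transformed scale and returned to log2, the miR396 level was 13.76 ± 0.03 in Fe resupply, 13.65 ± 0.04 in -Fe and 13.46 ± 0.11 in +Fe (SD, n = 3 each), and the libraries of each condition did not overlap those of another. Single features lay wholly above in 5.35% (Fe resupply against +Fe), 7.15% (-Fe against +Fe) and 7.27% (Fe resupply against -Fe) of cases. The miR396 sum was mostly ath-MIR396b, with a mean back-transformed value of 9107 beside 3538 for ath-MIR396a. It is thus not separate from the separation of that row, and the sums were not tested. The miR319 level was 13.35 ± 0.16 in Fe resupply, 13.25 ± 0.07 in -Fe and 13.26 ± 0.11 in +Fe, and the miR164 level was 8.55 ± 0.18, 8.50 ± 0.04 and 8.65 ± 0.17 in the same order, with overlap of conditions in both. The 8 rows together took 10.2% to 10.6% of the back-transformed total of all miRNA rows in Fe resupply, 9.58% to 9.95% in -Fe and 7.80% to 8.44% in +Fe. The miRNA total itself differed, with 2.50% to 2.84% of the back-transformed sum of all features in Fe resupply, 2.42% to 2.48% in -Fe and 2.75% to 2.85% in +Fe. That sum holds the 8 loci both as row and as cluster, and 10 features made up 70.1% to 73.6% of it. The part of the miRNA total in the shares of the 8 rows was not tested.

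Among the 314 miRNA rows that could be tested, ath-MIR396b ranked 11 and ath-MIR319c ranked 12 from the top by log2 fold change in Fe resupply against +Fe, and ath-MIR164a ranked 296. The median of the 8 rows was -0.05 in Fe resupply against +Fe and -0.06 in -Fe against +Fe, beside 0.02 and 0.01 for the 306 miRNA rows outside the 3 families and -0.0017 and -0.0015 for all features. Between Fe resupply and -Fe it was 0.05, beside 0.02 for the 306 rows and 0.0022 for all features. Of 42 rows of other leaf development miRNAs (miR156, miR157, miR159, miR160, miR165, miR166, miR167, miR172, miR390 and miR393), 0 passed in any comparison, and their medians were 0.08 for Fe resupply and 0.07 for -Fe, both against +Fe, and 0.0033 between Fe resupply and -Fe. At an unadjusted p under 0.05 from limma there were 7, 7 and 1 of the 42 in that order.

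**Figure D5:**
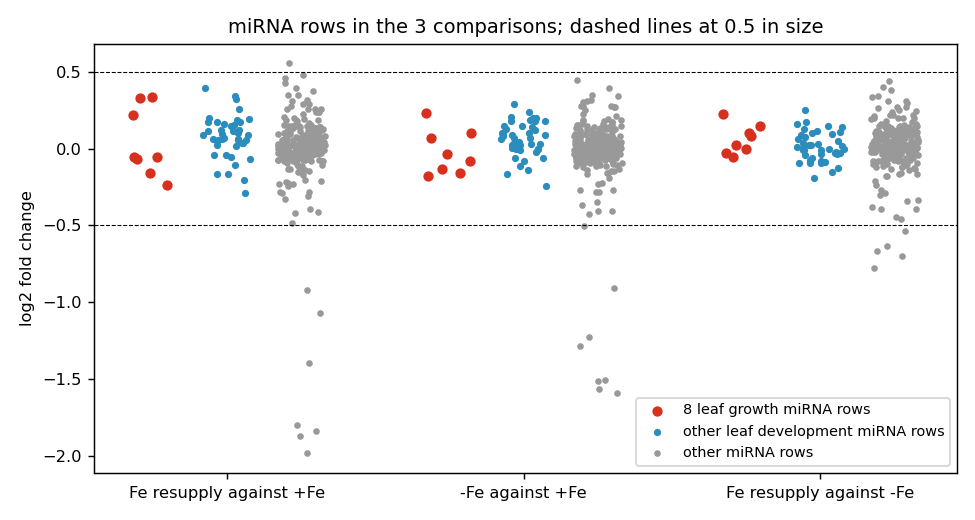
Log2 fold change (y axis) of the 8 leaf growth rows, of 42 other leaf development miRNA rows and of the remaining miRNA rows, 1 point a row, in the 3 comparisons (x axis), with dashed lines at 0.5 on either side of 0. The 8 rows lie between -0.23 and 0.33, inside the dashed lines, while some other miRNA rows fell below -0.5.

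The rows whose log2 values ran most like the highest row of each family over the 9 libraries were sought among the other 306 miRNA rows. For ath-MIR396b they were ath-MIR167a and ath-MIR167b, with Pearson's r of 0.94 and 0.92. For ath-MIR164b they were ath-MIR824 and ath-MIR858a (0.90 and 0.88), and for ath-MIR319a they were ath-MIR867 and ath-MIR172e (0.83 and 0.82). These are the highest of 306 values each, over libraries that share their scaling, and are given as a description.

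The sites in the known target mRNAs show how each family reads its targets. For each gene of a list of 18 targets, the stretch of the longest annotated mRNA that pairs best with a guide of its family was sought without gaps, at a penalty of 1 for a mismatch and 0.5 for a G:U pair. All 18 sites lie in coding sequence. Examples are printed 5′ to 3′, with bases in Watson-Crick pairs with the guide in capitals.
CUC2 with ath-miR164b-5p: aGCACGUGuCCUGuUUCUCCA
NAC100 with ath-miR164b-5p: UcuACGUGCCCUGCUUCUCCA
TCP4 with ath-miR319c: gAGGgGucCCCUUCAGUCCAg
TCP10 with ath-miR319c: AAGGgGuaCCCUUCAGUCCAg

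The CUC2 site (AT5G53950, chromosome 5 from 21902301 to 21902321, exon 3) has 18 of 21 Watson-Crick pairs and a penalty of 2, as has that of CUC1 with the same sequence. That of NAC100 (AT5G61430, chromosome 5 from 24701687 to 24701707) has 19 pairs and a penalty of 1.5, and the best stretch in CUC3, a related gene not known as a target, has 13 pairs and a penalty of 7. The site of TCP4 (AT3G15030, chromosome 3 from 5063300 to 5063320) has 16 pairs with ath-miR319c, and that of TCP10 (AT2G31070, chromosome 2 from 13221210 to 13221230) has 17. Without gaps, the stretch in all 5 TCP genes paired with a lower penalty to ath-miR319c than to the guide of MIR319a and MIR319b. The penalties with ath-miR319c were 2.5 to 3.5, since its base 20 can pair there.

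Without gaps the 7 GRF sites had penalties of 4.5 to 6. The best stretch had 6.5 in GRF5 and 5.5 in GRF6, which are not known as targets, so this search did not set the targets apart. With 1 mRNA base left unpaired at no penalty, a search added after these values were seen, the 7 GRF sites had 1 to 1.5. The same search gave TCP3 and TCP4 penalties of 3 and 2.5 with the guide of MIR319a and MIR319b. These are below the 3.5 and 3 of ath-miR319c without gaps, so its lower penalty in these genes depends on the search. With 1 base left unpaired, the guide of MIR319a and MIR319b also gave the best penalty in TCP2 (3.5) and TCP24 (4). Without gaps, ath-miR319c had 3.5 in both of these. In TCP10 the best was ath-miR319c, at 2.5 in either search. In the GRF sites the lower-case base in the middle is the unpaired one. Where an identical base stands beside it, either may be the unpaired one.
GRF3 with ath-miR396a-5p: CcGUUCAAGAAAGcCUGUGGAA
GRF7 with ath-miR396a-5p: ucGUUCAAGAAAGCaUGUGGAA
GRF9 with ath-miR396b-5p: AcGUUCAAGAAAGCuUGUGGAA

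The GRF3 site (AT2G36400, chromosome 2 from 15271745 to 15271766, exon 3) has 20 Watson-Crick pairs and 1 mismatch over the 21 guide bases, that of GRF7 (AT5G53660, chromosome 5 from 21795145 to 21795166, exon 2) has 19 with 1 G:U pair and 1 mismatch, and that of GRF9 (AT2G45480, chromosome 2 from 18746292 to 18746313, exon 2) has 20 and 1 mismatch. In GRF5 and GRF6 the best stretch had a penalty of 6 in the same search with 1 base left unpaired. Pairing is a description of sequence, and target mRNA levels were not analysed here.

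Few target genes hold a cluster of small RNAs themselves. Of the 18 target genes 4 overlap a cluster (TCP2, TCP3, TCP10 and GRF7), and of 6 related genes without a site in the list 1 does (GIF2). None of the 6 NAC targets, CUC1 and CUC2 among them, has one. The clusters at the TCP genes were low, with mean log2 values of 3.51 at TCP2, 2.99 at TCP3 and 2.71 at TCP10, and none of them includes the miR319 site of its gene. Cluster_21370 covers only the last 114 nt of GRF7 and extends past it, and does not include the miR396 site. Its log2 values were 8.02, 8.09 and 8.00 in Fe resupply, 8.03, 7.83 and 7.76 in -Fe, and 8.02, 8.00 and 7.96 in +Fe. Of the 5 clusters 0 passed in any comparison, 0 had an unadjusted p under 0.05 from limma, and the log2 fold changes lay between -0.12 and 0.16.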

How the data were processed

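Small RNA-seq libraries of Col-0 shoots in 3 conditions (3 biological replicates each, grouped by the labels) were used. The authors removed adapters with Cutadapt, aligned reads and defined and counted sRNA loci of 17 to 29 nt with ShortStack, compared raw counts with DESeq2 and deposited log2 normalized values. The labels name TAIR10, and versions are not given in the sources used here. Raw counts were not used here, so DESeq2 was not run. Column headers name condition and replicate.

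Values were used as deposited. After 12 features with one value were left out, 33159 were fitted with limma 3.58.1 in R 4.3.3 (1 fit over 9 libraries, eBayes with a trend, Benjamini-Hochberg adjustment, limits as in the authors' methods), without a filter. The fit was tested on simulated data. Single values were compared with a two-sided exact permutation test. Mature RNAs, precursors and genes came from RefSeq's TAIR10.1, where each cluster at a member contains its leading RNA. Clusters were given to a gene at an overlap of at least 1 nt. Python 3.11.15, numpy 2.4.6 and pandas 2.3.3 were used otherwise.

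The members, the target list and the other lists were chosen with earlier results of these data known. All 8 members are named, with the clusters at target genes, the unplaced sequences that match a mature RNA, and the 2 most similar miRNA rows for the highest member of each family. Alternatives were quantile normalization, median centring, a constant added before the logarithm, 2 filters on low values, a constant prior variance, a replicate block, leaving out each library, fitting 2 conditions at a time, other thresholds, and the cluster in place of the miRNA row.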

Additional observations from a re-analysis of the deposited data

How the results depend on the processing

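The count of leaf growth rows that passed stayed at 0, and so did that of clusters at target genes, in all 3 comparisons under each alternative that was run. Of 429 values of the rows under alternatives, 22 changed sign, 18 of them with a library left out. The largest main value among the results that changed sign was 0.101 in size, that of ath-MIR319c in -Fe against +Fe. Under quantile normalization the log2 fold change in -Fe against +Fe was -0.011 for ath-MIR319c and -0.030 for ath-MIR396a, and that between Fe resupply and -Fe was 0.0033 for ath-MIR319b; under median centring it was 0.017 for ath-MIR164c in the same comparison. With each library left out in turn, the values in Fe resupply against +Fe ranged from -0.19 to 0.071 for ath-MIR164b, from -0.17 to 0.12 for ath-MIR319a and from -0.20 to 0.12 for ath-MIR319b. In -Fe against +Fe they ranged from -0.14 to 0.0022 for ath-MIR319a and from -0.093 to 0.065 for ath-MIR319b. In Fe resupply against -Fe they ranged from -0.16 to 0.0074 for ath-MIR164a, from -0.069 to 0.084 for ath-MIR164c, from -0.089 to 0.19 for ath-MIR319a and from -0.17 to 0.15 for ath-MIR319b. An FDR under 0.1 was reached by 4 of the 429 values, with differences under the fold limit. In Fe resupply against +Fe these were ath-MIR396b at 0.34 under quantile normalization (adjusted p = 0.0579 from limma, range over alternatives 0.0579 to 0.652) and, without Fe resupply replicate 1, ath-MIR319c at 0.41 (adjusted p = 0.0193, range 0.0193 to 0.845) and ath-MIR396b at 0.33 (adjusted p = 0.0936). In Fe resupply against -Fe, ath-MIR319c without that library was at 0.31 (adjusted p = 0.0493, range 0.0493 to 0.613).

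Counts over all features moved more. When features with a back-transformed mean under 50 were left out, 13 passed in Fe resupply against +Fe in place of 42, 37 in place of 167 for -Fe against +Fe, and 99 in place of 175 for Fe resupply against -Fe, as fewer features were tested; ath-MIR164a was then left out. Without a fold limit, 371 passed between Fe resupply and -Fe, and 265 for -Fe against +Fe. With a library left out, the counts ranged from 26 to 122 in Fe resupply against +Fe, from 121 to 236 in -Fe against +Fe and from 97 to 375 between Fe resupply and -Fe. The counts that moved by more than 1.5 times were those of Fe resupply against +Fe without Fe resupply replicate 1 (122), Fe resupply replicate 2 (76), +Fe replicate 2 (65) or +Fe replicate 3 (26), and those of Fe resupply against -Fe without Fe resupply replicate 1 (375) or -Fe replicate 3 (97). Of the correlations of the deviations of same-numbered libraries, 1 of 9 exceeded 0.1, and of those of differently numbered libraries 1 of 18. They ranged from -0.059 to 0.104 and from -0.115 to 0.158. These few correlations cannot settle whether replicate numbers pair the libraries. With a replicate block, 75 features passed in Fe resupply against +Fe, and no call of a leaf growth row changed. The cause of these shifts was not tested. Depth is unknown, and the precision of a value rests on 3 libraries a condition.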
